A study of Arabidopsis thaliana with 24 samples.

Results

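The 6 genes described here act in the repair of DNA interstrand crosslinks or in the copying of DNA past damage. They were taken from a list of named genes and found through the annotation of the array, where each was represented by a single probe set that names no other gene. They are FANCM (AT1G35530), FANCD2 (AT4G14970), FAN1 (AT1G48360), POLH (AT5G44740), REV7 (AT1G16590) and RAD5 (AT5G22750). The names FANCD2 and FAN1 came with the list of genes. They are 6 of 13286 genes with such a probe set. The list names them by their role, but it was made with earlier results of these data known.

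Arabidopsis thaliana Col-0 plants, 16 days old, received bleomycin at 1.5 µg/ml together with mitomycin at 22 µg/ml. Bleomycin breaks DNA strands, and mitomycin joins the strands of the double helix covalently. Shoots and roots were sampled 0.5, 1, 3, 6, 12 and 24 h after the drugs were added, and RNA was measured on 24 Affymetrix ATH1 arrays (22746 probe sets tested), 2 for each of the 12 groups of tissue and time. All 12 groups had received both drugs, lifting of the plants on their raft and stirring of the medium. Untreated plants were not analysed here, so each later time was compared with 0.5 h. Treatment began 3 h into a light period of 16 h, so the samples were taken 3.5, 4, 6, 9, 15 and 3 h after lights on, the last on the next day. Time after the drugs and hour of the day cannot be told apart, although the 24 h samples lay close to the 0.5 h samples in the daily cycle. No label states whether the paired arrays were separate cultures or the same RNA measured again, so a p-value here reflects the spread between arrays, which may be technical only.

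A crosslink between the DNA strands blocks replication. In the pathway named after the human disease Fanconi anaemia, FANCM is a DNA translocase that recognises and remodels the stalled fork, and FANCD2, known best from human cells, is clamped onto DNA in its ubiquitinated form and brings in nucleases. FAN1 is a nuclease that trims DNA around the lesion. Translesion polymerases copy past damaged bases: POLH encodes DNA polymerase eta, and REV7 encodes an accessory subunit of DNA polymerase zeta, which extends from damaged sites. RAD5, studied most in yeast, is a helicase and ubiquitin ligase that directs damage bypass without mutation by marking the sliding clamp PCNA, and its Arabidopsis counterpart is known to be needed for tolerance of crosslinking drugs.

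The deposited values were linear array signals scaled to a common trimmed mean. Array medians ran from 35.96 to 39.91 in shoots and from 45.25 to 47.76 in roots, and the arrays of a group correlated at 0.984 to 0.993. The summed signal of 3 leaf photosynthesis markers was 9416 to 19720 in shoots and 234.9 to 480.8 in roots, and that of 3 root markers was 3014 to 3797 in roots and 398.5 to 812.4 in shoots, as the tissue labels say. The arrays of shoots at 12 h replicate 1 and shoots at 24 h replicate 2 stood nearest to the roots, with mean correlations of 0.714 and 0.711 against 0.678 to 0.692 for the other shoot arrays. Calls that end without both of these arrays are given beside the result. In bulk tissue, fewer cells of a type and less RNA per cell cannot be told apart.

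RAD5 lay among the dimmest 30% of probe sets, with a mean above that of 21.2% of them, and the other 5 lay above 31.6% to 46.5% of them. Levels of different genes were not compared, since their probes differ. Changes were fitted on the log2(signal + 16) scale, which understates the change of dim genes, and a pass means an adjusted p below 0.05. Folds are on that same scale. No detection call was used, so a dim signal could not be told from background.

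FANCD2 was the member with the largest change from 0.5 h on the log2(signal + 16) scale, and that change was in roots. There its signal rose at 3, 6, 12 and 24 h, with a peak of 2.01-fold at 6 h, while no change in shoots passed the test at any time. The other members moved less on that scale. FAN1 rose at 6 h and fell at 24 h in shoots, where POLH rose and FANCM fell at 12 h. RAD5 rose at 6 h in roots. With 1 added to the signal in place of 16, that RAD5 rise was a log2 change of 1.54 (adjusted p = 0.0713), beside a log2 change of 1.70 for FANCD2. REV7 passed no comparison. At 1 h no member passed in either tissue.

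In shoots, 0 of 6 members passed at 1 h, where 8.76% of all probe sets did, and 0 passed at 3 h, where 12.3% did. At 6 h 1 member passed against 20.8% of all probe sets, at 12 h 2 against 28.7%, and at 24 h 1 against 19.0%. These shares are near or below the background of each comparison. The median log2 change of the 6 members in shoots was -0.08, -0.06, 0.07, 0.05 and -0.12 at 1, 3, 6, 12 and 24 h, beside -0.01, -0.02, -0.04, -0.04 and -0.05 over all probe sets.

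In roots, 0 of 6 members passed at 1 h, where 0.470% of all probe sets did. At 3 h 1 member passed against 5.36%, at 6 h 2 against 5.84%, at 12 h 1 against 9.66% and at 24 h 1 against 13.1%. The root passes were FANCD2 from 3 h on and RAD5 at 6 h. The median log2 change of the members in roots was 0.01, 0.04, 0.20, 0.26 and 0.21 at the 5 times, beside 0.01, 0.02, 0.03, 0.01 and 0.02 over all probe sets. In a test of any change over time, 2 members passed in shoots (FAN1 and POLH), where 40.4% of all probe sets did, and 1 in roots (FANCD2), where 16.3% did.

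**Figure D1:**
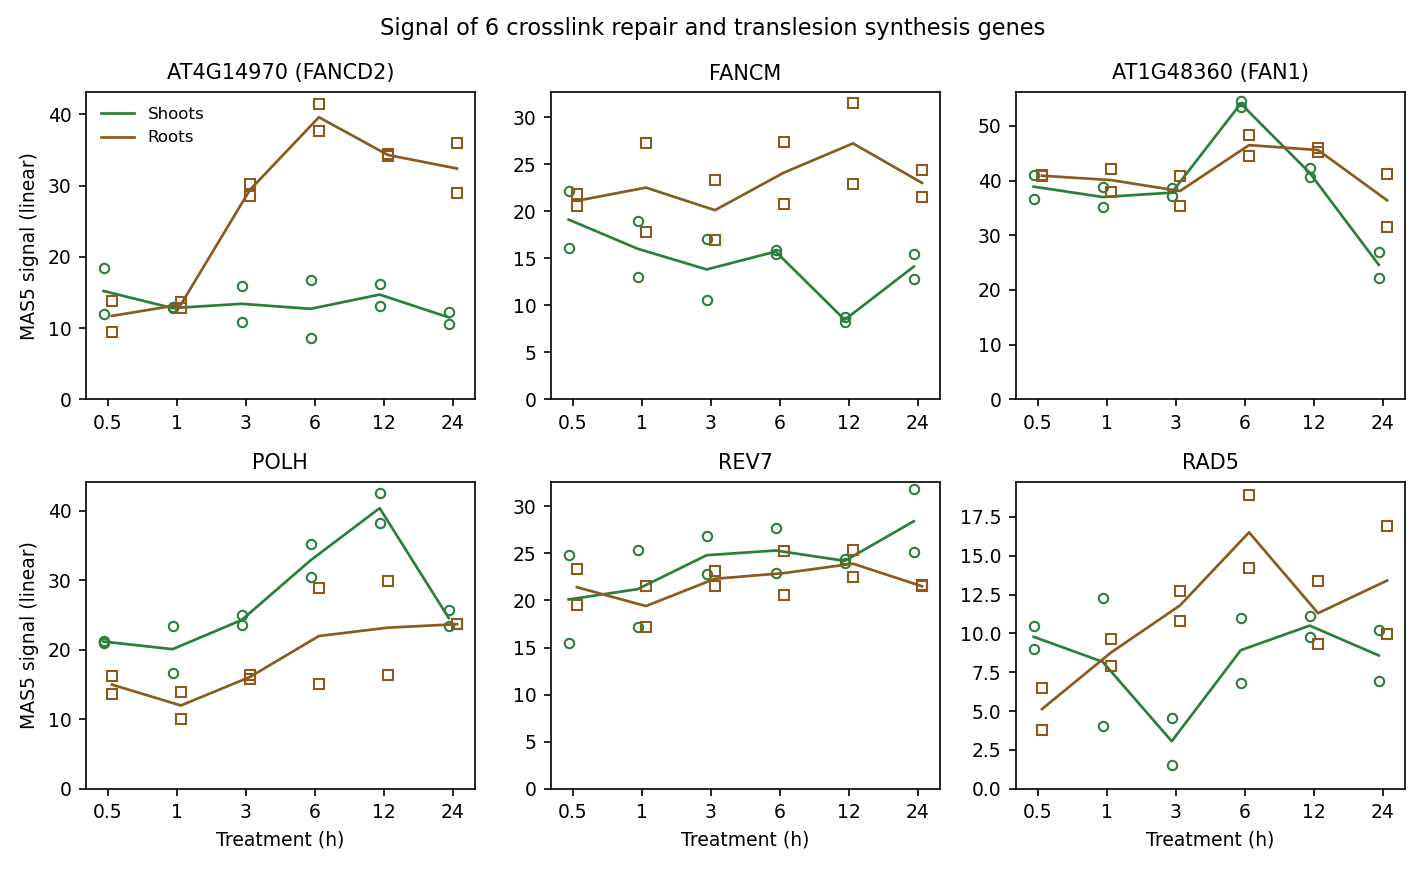
Array signal of the 6 genes (vertical axes, linear, scaled to a trimmed mean of 100) against hours after the drugs were added (times drawn at even spacing), with a circle (shoots) or square (roots) for each array and lines through the group means, green for shoots and brown for roots. FANCD2 signals in roots from 3 h on lay between 28.6 and 41.5, above every shoot array of the same gene.

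FANCD2, the clamp protein of the Fanconi pathway, had signals of 13.8 and 9.51 in the 2 root arrays at 0.5 h and of 13.7 and 12.8 at 1 h. They were 30.2 and 28.6 at 3 h, 37.7 and 41.5 at 6 h, 34.2 and 34.4 at 12 h, and 28.9 and 36.0 at 24 h. Every root array from 3 h on was therefore above every root array of the first hour, and the times from 3 h on differed little among themselves: 24 and 12 h overlapped, and 6 h lay highest, apart from 12 h.

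From 0.5 h the FANCD2 signal in roots rose by 0.72 ± 0.14 on the log2 scale at 3 h (SE; adjusted p = 0.00489, 1.65-fold). The rise was 1.01 ± 0.14 at 6 h (adjusted p = 0.000219, 2.01-fold), 0.87 ± 0.14 at 12 h (adjusted p = 0.000644, 1.82-fold) and 0.81 ± 0.14 at 24 h (adjusted p = 0.00106, 1.75-fold). The course as a whole changed over time (adjusted p = 0.00015). The rise at 3 h was lost without roots at 0.5 h replicate 2 (adjusted p = 0.0812), whereas those at 6, 12 and 24 h held with each of the 4 arrays left out in turn. The size depends on the pseudocount, since the 6 h rise was 1.70 with a pseudocount of 1 and 0.45 with 64.

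In shoots the FANCD2 signals were 18.5 and 12 at 0.5 h, 12.9 and 12.8 at 1 h, and 10.8 and 15.9 at 3 h. They were 8.59 and 16.8 at 6 h, 16.2 and 13.1 at 12 h, and 12.3 and 10.6 at 24 h. In the order of mean levels, each time overlapped with the next. Times further apart in that order did not all overlap, since both 12 h arrays lay above both 24 h arrays. The log2 changes from 0.5 h ran from -0.18 to -0.02 with an SE of 0.14, and the test of any change over time did not pass (adjusted p = 0.889). At 6 h the 95% interval of the shoot change was -0.43 to 0.17, and the corresponding rise in roots lay above it.

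FANCM, the fork translocase, was the member whose signal fell in shoots at 12 h. Its 2 shoot arrays read 22.1 and 16.1 at 0.5 h, 13.0 and 18.9 at 1 h, and 17.0 and 10.6 at 3 h. They read 15.4 and 15.9 at 6 h, 8.20 and 8.70 at 12 h, and 15.4 and 12.8 at 24 h. The 12 h arrays were the lowest of the 12 shoot arrays and overlapped with no other time. The fall at 12 h was -0.52 ± 0.15 on the log2 scale (SE; adjusted p = 0.018). It was lost without shoots at 0.5 h replicate 1, without either 12 h array (changes of -0.64 to -0.39 over the 4 arrays left out), with 1 h as the baseline (-0.38, adjusted p = 0.0952) and without the 2 shoot arrays that stood nearest to the roots (-0.50, adjusted p = 0.0844). The leaf marker sum was lowest at the same time, 9416 and 11660 in the 2 arrays. At 12 h in shoots 8 of 11 markers of dividing cells passed as lower, where 28.7% of all probe sets passed in either direction. Whether these bear on the FANCM value was not tested.

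In roots FANCM signals ran from 16.9 to 31.5 with a median of 22.3. The largest log2 change was 0.21 ± 0.15 at 12 h (95% interval -0.12 to 0.54, adjusted p = 0.519), so no change was shown. Neither tissue passed the test of any change over time (adjusted p = 0.14 in shoots and 0.836 in roots).

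FAN1, the nuclease, had the smallest spread of the 6 in shoots, a pooled SD of 0.07 on the log2 scale within groups. Its shoot signals were 41.1 and 36.7 at 0.5 h, 35.1 and 38.8 at 1 h, and 37.1 and 38.6 at 3 h. They were 54.6 and 53.5 at 6 h, 40.6 and 42.3 at 12 h, and 22.2 and 27.0 at 24 h. The 6 h arrays were above, and the 24 h arrays below, every other shoot array, while 0.5, 1, 3 and 12 h overlapped with their neighbours in the order of levels. FAN1 rose by 0.35 ± 0.11 at 6 h (adjusted p = 0.0291, 1.28-fold), and its change at 24 h was -0.44 ± 0.11 (adjusted p = 0.00944, 95% interval -0.67 to -0.21).

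The shoot course of FAN1 as a whole changed over time (adjusted p = 0.000594), and this held with each of the 12 shoot arrays left out. The single times were less firm: the 6 h rise was lost without shoots at 0.5 h replicate 2, without either 6 h array and with shoots fitted alone (adjusted p = 0.0758), and the 24 h fall was lost without shoots at 0.5 h replicate 1 or shoots at 24 h replicate 1. In roots FAN1 ran from 31.5 to 48.4 with a median of 41.1, with log2 changes of -0.13 to 0.13 (SE 0.11) and no pass over time (adjusted p = 0.396).

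POLH, the translesion polymerase eta gene, rose in shoots at 12 h. Its shoot arrays read 21.0 and 21.3 at 0.5 h, 16.7 and 23.5 at 1 h, and 25.0 and 23.6 at 3 h. They read 30.5 and 35.2 at 6 h, 38.3 and 42.6 at 12 h, and 25.7 and 23.5 at 24 h. The 6 h arrays and, above them, the 12 h arrays lay apart from all other shoot times. The log2 change was 0.60 ± 0.17 at 12 h (adjusted p = 0.011, 1.52-fold), and at 6 h it was 0.39 ± 0.17 without passing (adjusted p = 0.11), although it passed against the mean of 0.5 and 1 h (0.42, adjusted p = 0.0482). The 12 h rise was lost without shoots at 0.5 h replicate 1 or shoots at 12 h replicate 2, and stood at 0.66 (adjusted p = 0.0361) without the 2 shoot arrays that stood nearest to the roots. The pass for any change in shoots (adjusted p = 0.0254) was lost without shoots at 1 h replicate 1, without either 12 h array, with a pseudocount of 1 and without both of those arrays (adjusted p = 0.0815).

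In roots POLH signals were 16.3 and 13.7 at 0.5 h, 13.9 and 10.1 at 1 h, and 16.4 and 15.8 at 3 h. They were 15.1 and 28.9 at 6 h, 16.4 and 29.9 at 12 h, and 23.7 and 23.7 at 24 h. The 2 root arrays parted at 6 and 12 h, and replicate 2 was the higher at both. The pooled SD within root groups, 0.22 on the log2 scale, was the largest of the 6 members in either tissue. None of the root changes passed, and the largest, 0.36 ± 0.17 at 24 h, had a 95% interval of 0.01 to 0.71 (adjusted p = 0.189).

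REV7, the subunit of polymerase zeta, passed no comparison in either tissue. Its shoot signals ran from 15.5 to 31.8 with a median of 24.6, and its root signals from 17.2 to 25.4 with a median of 21.6. At 0.5 h the 2 shoot arrays read 15.5 and 24.8, and at 24 h 31.8 and 25.1. The log2 change at 24 h in shoots was 0.31 ± 0.14 (95% interval 0.01 to 0.60, adjusted p = 0.15), and in roots the changes ran from -0.08 to 0.10 with intervals within -0.38 to 0.39. Adjusted p-values for any change over time were 0.449 in shoots and 0.957 in roots.

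RAD5, the bypass ligase, gave the only probe set of the 6 that a filter on the dimmest 30% removes. Its root signals were 3.76 and 6.50 at 0.5 h, 7.89 and 9.64 at 1 h, and 12.7 and 10.8 at 3 h. They were 18.9 and 14.2 at 6 h, 13.4 and 9.29 at 12 h, and 16.9 and 9.97 at 24 h. The 0.5 h arrays were the lowest of the root series. RAD5 rose by 0.62 ± 0.16 at 6 h in roots (adjusted p = 0.0237, 1.54-fold), and at 24 h the change was 0.47 ± 0.16 without passing (adjusted p = 0.0583).

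The RAD5 rise at 6 h was lost without either 0.5 h root array and without roots at 6 h replicate 1. It was also lost with a pseudocount of 1 (log2 change 1.54, adjusted p = 0.0713), with all arrays quantile normalized together and with 1 h as the baseline (log2 change 0.39, adjusted p = 0.248). Root arrays did not pass the test of any change over time (adjusted p = 0.09). In shoots RAD5 ran from 1.56 to 12.3 with a median of 9.40. Its lowest shoot arrays were those of 3 h, 1.56 and 4.55, with a log2 change of -0.44 ± 0.16 that did not pass (adjusted p = 0.0818).

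**Figure D2:**
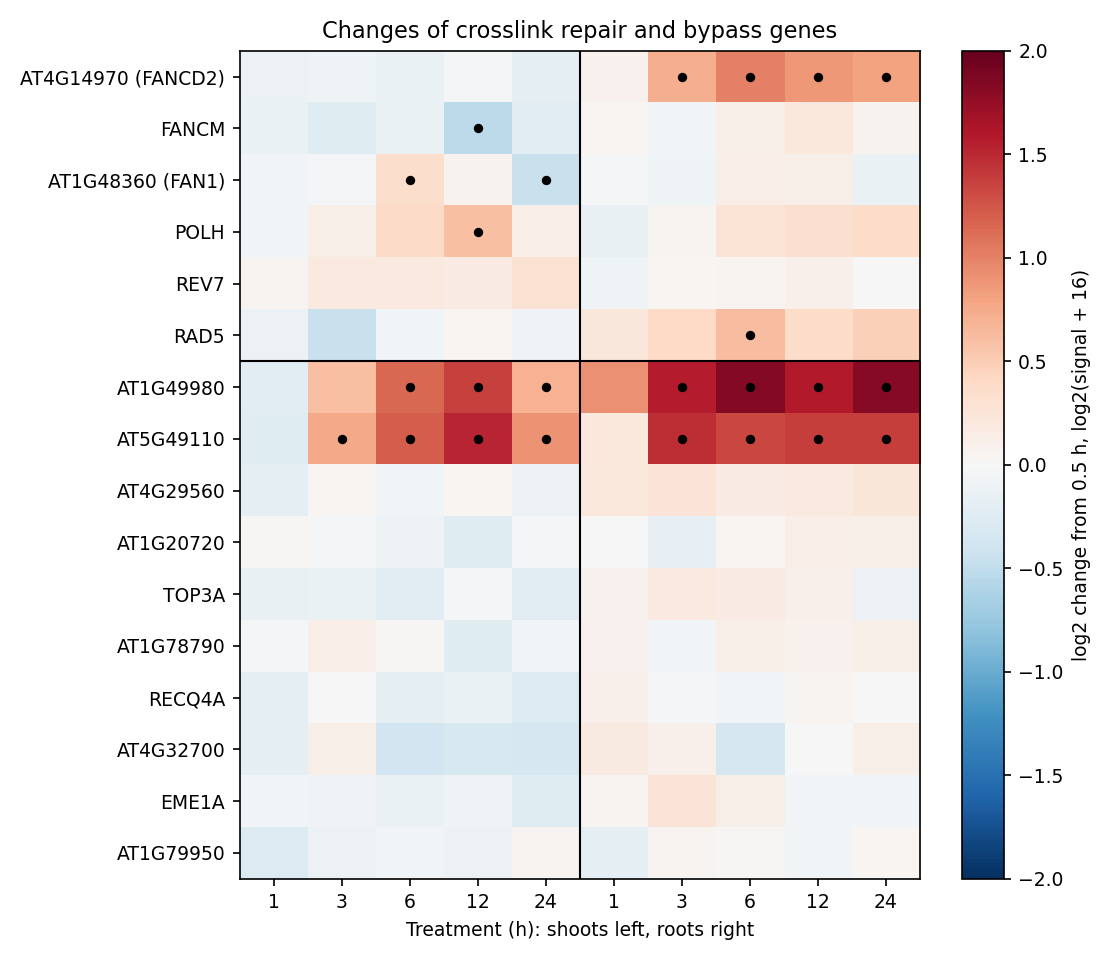
Log2 change from 0.5 h of the 6 genes and the 10 other measured genes of the crosslink repair and damage bypass lists (rows), in shoots and roots at 1, 3, 6, 12 and 24 h (columns), with dots where the adjusted p was below 0.05. FANCD2 has dots in roots at 3, 6, 12 and 24 h and in shoots at no time, and AT5G49110 and AT1G49980 have dots in both tissues.

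Levels over all 6 times were compared between the tissues, where 76.8% of all probe sets passed. Of the 6 members 4 passed. POLH was higher in shoots, and FANCD2, FANCM and RAD5 were lower there. The median difference of the members, shoots minus roots, was -0.12 on the log2 scale, beside -0.11 over all probe sets, so the members as a list lay where all probe sets lay. That overall difference depends on the scaling, since it was -0.114 as deposited, -0.006 after quantile normalization of all arrays and 0.091 after centring each array on its median.

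FANCD2 was lower in shoots by 0.50 ± 0.06 on the log2 scale (adjusted p = 3.59e-07). Its signals were 8.59 to 18.5 in shoots and 9.51 to 41.5 in roots, ranges that overlap through the first hour of the roots. Mean signals in shoots and roots were 15.2 and 11.7 at 0.5 h and 12.8 and 13.3 at 1 h. The arrays of the 2 tissues lay apart only from 3 h on. The difference over all times stayed at -0.32 after quantile normalization of all arrays and -0.29 after centring. FANCM was lower in shoots by 0.36 ± 0.06 (adjusted p = 4.99e-05), with 8.20 to 22.1 in shoots and 16.9 to 31.5 in roots, and stayed lower at -0.16 and -0.15 under these scalings. POLH was higher in shoots by 0.32 ± 0.07 (adjusted p = 0.000336), with 16.7 to 42.6 in shoots and 10.1 to 29.9 in roots, and at 0.51 and 0.53 under them. These 3 calls held with each of the 24 arrays left out.

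The other members had no stable difference between tissues. RAD5 was lower in shoots by 0.17 ± 0.06 (adjusted p = 0.0257), but the difference was -0.03 after quantile normalization of all arrays and 0.04 after centring (adjusted p = 0.731 and 0.556), and the call was lost with 8 of the 24 arrays left out in turn. FAN1 differed by -0.07 ± 0.04 as deposited (adjusted p = 0.147) and by 0.13 under both other scalings (adjusted p = 0.0122 in each). REV7 differed by 0.07 ± 0.06 as deposited (adjusted p = 0.261) and by 0.28 under both (adjusted p = 0.00085 and 0.000402).

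Whether a change from 0.5 h differed between roots and shoots was tested directly, as roots minus shoots. At 1 h no member passed, where 3.28% of all probe sets did. At 3 h 2 passed (FANCD2 and RAD5) against 8.01%, at 6 h 1 (FANCD2) against 12%, at 12 h 2 (FANCD2 and FANCM) against 15.6%, and at 24 h 1 (FANCD2) against 9.39%. Over the whole course 1 member passed (FANCD2), where 25.9% of all probe sets did. All these comparisons share the 0.5 h arrays.

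The FANCD2 change from 0.5 h was larger in roots than in shoots by 0.81 ± 0.20 on the log2 scale at 3 h (adjusted p = 0.0197), 1.14 ± 0.20 at 6 h (adjusted p = 0.00112), 0.89 ± 0.20 at 12 h (adjusted p = 0.00561) and 0.99 ± 0.20 at 24 h (adjusted p = 0.00541). The differences at 6, 12 and 24 h held with each of 8 arrays left out. That at 3 h was lost without shoots at 0.5 h replicate 1, roots at 0.5 h replicate 2, shoots at 3 h replicate 1 or either root array at 3 h. It was also lost with a pseudocount of 1 (adjusted p = 0.0503), with quantile normalization of all arrays (0.64, adjusted p = 0.0743) and with 1 h as the baseline (0.61, adjusted p = 0.0975).

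FANCM differed by 0.73 ± 0.22 at 12 h (adjusted p = 0.0313), roots above shoots, with the shoot fall as the larger share of it. The call was lost without shoots at 0.5 h replicate 1, either root array at 0.5 h, either shoot array at 12 h or roots at 12 h replicate 2, and without both shoot arrays nearest to the roots (0.71, adjusted p = 0.0793). It was also lost with quantile normalization within each tissue (0.60, adjusted p = 0.0576) and with 1 h as the baseline (0.55, adjusted p = 0.124).

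RAD5 differed by 0.84 ± 0.22 at 3 h (adjusted p = 0.0274), where shoots and roots lay on opposite sides of their 0.5 h level. Neither change passed alone, with -0.44 in shoots (adjusted p = 0.0818) and 0.40 in roots (adjusted p = 0.197). The difference over the whole course did not pass either (adjusted p = 0.075). The shoot signals at 3 h were as low as 1.56 and 4.55. The size depends on the pseudocount, with 2.60 for a pseudocount of 1 (adjusted p = 0.0225) and 0.27 for 64 (adjusted p = 0.0341). The RAD5 call was lost without either shoot array at 0.5 h, roots at 0.5 h replicate 1, shoots at 3 h replicate 1 or either root array at 3 h. It was also lost with quantile normalization of all arrays (0.70, adjusted p = 0.0751) or within each tissue (0.69, adjusted p = 0.0768) and with 1 h as the baseline (0.49, adjusted p = 0.26).

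For FAN1, POLH and REV7 no difference between the tissues' changes was shown. The 24 h difference of FAN1 was 0.31 (95% interval -0.02 to 0.64, adjusted p = 0.236), so the shoot fall of FAN1 at 24 h was not shown to be particular to shoots. The 12 h difference of POLH was -0.29 (95% interval -0.78 to 0.21, adjusted p = 0.48), and that of REV7 at 24 h was -0.30 (95% interval -0.72 to 0.12, adjusted p = 0.391). These intervals leave room for differences as large as the changes themselves.

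**Figure D3:**
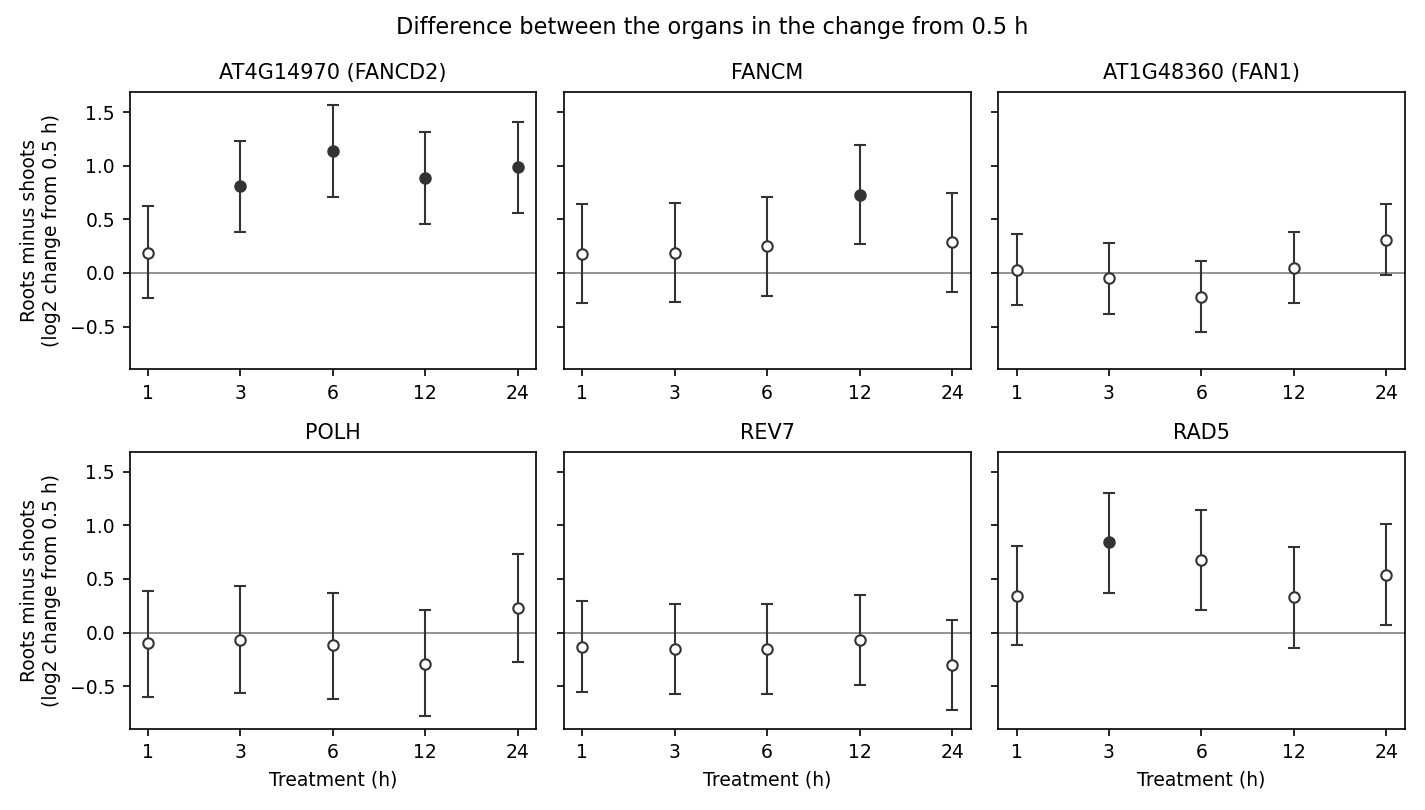
Difference between the tissues' changes from 0.5 h (roots minus shoots, log2 scale, vertical axis) for each of the 6 genes at 1, 3, 6, 12 and 24 h, with 95% intervals as bars and filled points where the adjusted p was below 0.05. FANCD2 is filled from 3 h to 24 h, with values of 0.81 to 1.14, and REV7, FAN1 and POLH have no filled point.

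Of the 37 genes listed for crosslink repair and damage bypass, 16 were matched to a probe set of their own, 10 of them other than the members. The rest were not matched in the annotation used, in which 8730 probe sets were not listed. Whether the array measures them is therefore not known here. Of the 10 matched genes other than the members, 7 passed at least 1 comparison. All 7 passed between tissues over all times, where 76.8% of all probe sets did. Only AT5G49110 and AT1G49980 passed any comparison over time or between the tissues' courses. Both passed the test of any change over time in shoots and in roots, where 40.4% and 16.3% of all probe sets did. For the other 8, the log2 changes from 0.5 h and the differences between tissues in those changes ran from -0.39 to 0.45, with no adjusted p below 0.126. The annotation used here gives no name to AT5G49110, AT1G49980 and several other loci of these lists, so only their identifiers are given.

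AT5G49110, listed for crosslink repair, rose in both tissues. Its shoot signals were 2.54 and 7.06 at 0.5 h, 0.909 and 1.88 at 1 h, and 19.8 and 18.4 at 3 h. They were 26.4 and 38.0 at 6 h, 59.0 and 31.4 at 12 h, and 26.1 and 19.6 at 24 h. The times from 3 h on did not overlap with the first hour, and the log2 rises were 0.76, 1.21, 1.53 and 0.90 (SE 0.21; adjusted p = 0.0247, 0.000421, 2.66e-05 and 0.00588) at 3, 6, 12 and 24 h.

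In roots AT5G49110 was 7.87 and 7.76 at 0.5 h and 13.2 and 10.1 at 1 h, and from 3 h on between 36.8 and 57.5. Its rises from 3 h on were 1.34 to 1.48 (SE 0.21, adjusted p = 0.000283 to 0.000644), and each held with any array left out. The shoot rises at 3 h and 24 h were lost without shoots at 0.5 h replicate 1 or the first array of the later time, and that at 3 h also without the second, with a pseudocount of 64 (adjusted p = 0.129) and with shoots fitted alone (adjusted p = 0.0638). No difference between the tissues' changes passed, with 0.71 ± 0.30 at 3 h (adjusted p = 0.164) as the largest.

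AT1G49980, listed for damage bypass, also rose in both tissues. Its shoot signals were 36.4 and 39.6 at 0.5 h, 31.5 and 28.8 at 1 h, and 50.6 and 84.6 at 3 h. They were 110.2 and 97.9 at 6 h, 130.8 and 114.2 at 12 h, and 81.2 and 61.7 at 24 h. All arrays from 3 h on were above those of the first hour, with log2 rises of 1.15 ± 0.20 at 6 h (adjusted p = 0.000453), 1.36 ± 0.20 at 12 h (adjusted p = 6.07e-05) and 0.69 ± 0.20 at 24 h (adjusted p = 0.0247). The last was lost without either shoot array at 0.5 h, without shoots at 24 h replicate 1 and with a pseudocount of 64 (adjusted p = 0.0619).

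In roots AT1G49980 read 41.8 and 32.5 at 0.5 h and 89.9 and 78.6 at 1 h, and between 110.2 and 199.0 from 3 h on. The rises were 1.57, 1.84, 1.58 and 1.82 (SE 0.20; adjusted p = 9.98e-05, 1.7e-05, 5.69e-05 and 1.67e-05) at 3, 6, 12 and 24 h, and 0.92 at 1 h did not pass (adjusted p = 0.0634). With 1 h as the baseline the root changes at 3 and 12 h, 0.65 and 0.67, did not pass (adjusted p = 0.118 and 0.0633). Its change was larger in roots than in shoots by 1.15 ± 0.29 at 1 h (adjusted p = 0.0353), 0.96 ± 0.29 at 3 h (adjusted p = 0.0479) and 1.13 ± 0.29 at 24 h (adjusted p = 0.0192). The 1 h difference was lost with each of 8 arrays left out and with a pseudocount of 64 (adjusted p = 0.0937).

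The 3 h difference of AT1G49980 was lost with 6 of 8 arrays left out in turn, with pseudocounts of 1 and 64 (adjusted p = 0.0564 and 0.0507), with quantile normalization within each tissue (adjusted p = 0.0617), with centring (adjusted p = 0.0673) and without the intensity trend. The 24 h difference was lost without roots at 0.5 h replicate 2, shoots at 24 h replicate 2 or roots at 24 h replicate 1, and without the 2 shoot arrays that stood nearest to the roots (0.97, adjusted p = 0.083). Against the mean of 0.5 and 1 h, the differences at 3 and 24 h were 0.39 and 0.56 and did not pass (adjusted p = 0.401 and 0.167). With 1 h as the baseline the differences at 3 and 24 h were -0.18 and -0.01 (adjusted p = 0.831 and 0.991), and that at 12 h was -0.92 (adjusted p = 0.0466).

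**Figure D4:**
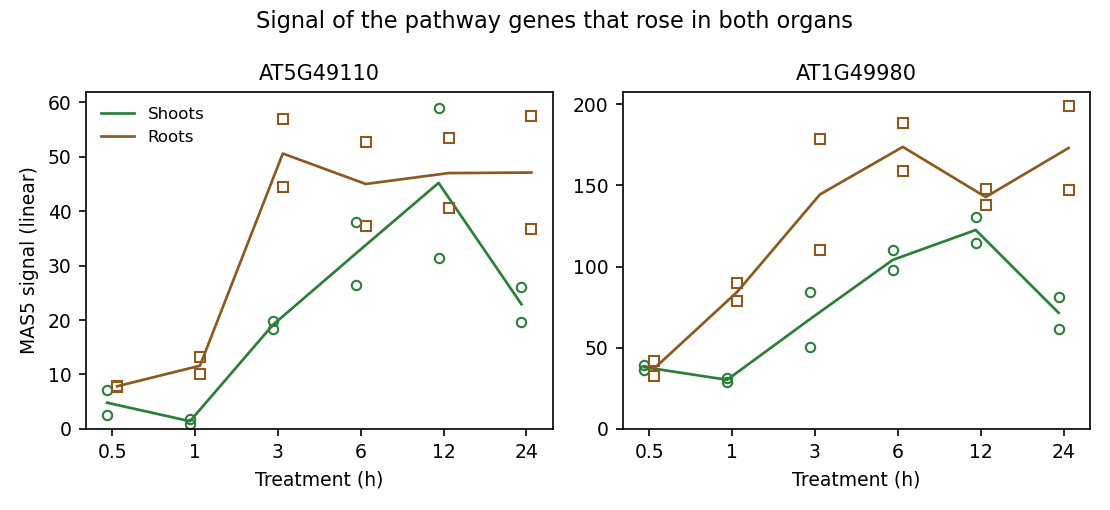
Array signal of AT5G49110 and AT1G49980 (vertical axes, linear, scaled to a trimmed mean of 100) against hours after the drugs were added (times drawn at even spacing), with a circle (shoots) or square (roots) for each array and lines through the group means, green for shoots and brown for roots. AT1G49980 reached 130.8 in shoots at 12 h and 199.0 in roots at 24 h.

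Between tissues over all times, 7 of the 10 other genes passed, against the 76.8% of all probe sets above. EME1A, a subunit of a structure-specific nuclease with MUS81, was lower in shoots by 0.52 ± 0.06, AT1G79950 by 0.59 ± 0.06 and AT1G20720 by 0.53 ± 0.08. AT5G49110 was lower by 0.48 ± 0.09 and AT1G49980 by 0.67 ± 0.08. RECQ4A, a RecQ helicase, was higher in shoots by 0.54 ± 0.06. AT4G32700 was higher by 0.27 ± 0.08 on its brighter probe set. Its second, dim at 2.38 to 10.6, gave 0.02 (adjusted p = 0.789), so the difference was not seen on both. TOP3A, a topoisomerase that acts with RecQ helicases, AT1G78790 (MHF2) and AT4G29560 passed no comparison.

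Other genes moved over the same hours. The 10 loci of a damage response list were chosen with earlier results of these data known and so give no independent support. In roots at 24 h 10 of 10 passed as higher (median log2 change 1.56), where 13.1% of all probe sets passed in either direction. In shoots at 24 h 8 of 10 passed as higher (1.48), against 19.0%. The members' medians at 24 h were 0.21 in roots and -0.12 in shoots. In roots, 9 of 11 markers of dividing cells passed as lower at 6 h (median -0.77), against 5.84% of all probe sets. At 24 h 11 of 11 did (-0.87), against 13.1%. Their summed root signal went from 1643 and 1579 at 0.5 h to 742.0 and 750.8 at 24 h. In shoots, 2 of these 11 markers passed as higher and 0 as lower at 3 h, against 12.3% of all probe sets. At 6 h 3 passed as higher and 1 as lower (median 0.05), against 20.8%. At 12 h 8 passed as lower (-0.57), against 28.7%, and at 24 h 7 did (-0.61), against 19.0%. FANCD2 was high in roots at the same times; whether the change in dividing cells bears on that value was not tested.

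Among single-gene probe sets with a mean of at least 6 on the log2(signal + 16) scale, time courses most like each member were ranked by Pearson's r over the 12 group means, after each tissue's mean was taken out. The points share the hour of the day and the scaling of the arrays, and the values are descriptions. For FANCD2 the nearest were HMT-1 (0.915) and AT4G32420 (0.907), and for FAN1 AT1G28060 (0.92) and AT1G21670 (0.91). For FANCM they were AT5G05800 (0.946) and OSB1 (0.886), and for REV7 AT5G03030 (0.921) and AT5G64250 (0.92). For POLH they were AT3G29230 (0.959) and VPS60.2 (0.935), and for RAD5 AT3G62140 (0.849) and AT3G17410 (0.835).

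Among the members themselves the highest such correlation was 0.727, between FANCD2 and RAD5, and the lowest -0.351, between POLH and FANCM. The course of POLH correlated at 0.844 with AT5G49110 and at 0.808 with AT1G49980, and these 2 loci correlated at 0.955 with each other.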

How the data were processed

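RNA of shoots and roots was measured on 24 Affymetrix ATH1 arrays, 2 per tissue and time. Per the submitters' processing notes, MAS5 made the deposited signal intensities, which are linear, and each array had a trimmed mean of 100 with 2% left out at each end. MAS5 settings and the genome build are not given in the sources used here. Of 22810 probe sets, 64 array controls were left out, which left 22746. Log2(signal + 16) was fitted in R 4.3.3 with limma 3.58.1 to 12 group means, with prior variances that follow intensity (4.91 prior and 12 residual degrees of freedom) and Benjamini-Hochberg adjustment within each comparison over all probe sets. Errors are limma's SE. The number of arrays limits the precision. Tables were made in Python 3.11.15 with pandas 2.3.3, numpy 2.4.6 and scipy 1.17.1, and figures with matplotlib 3.10.9.

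Gene names came from the annotation table of the array, in which 13513 carried 1 gene, 503 several and 8730 were not listed. Loci were matched to the TAIR10.1 gene table for 13436 of them. All 6 members were described whatever their values, as were the 2 genes of most similar course for each and every other measured gene of the 2 pathway lists that passed a comparison. The members, lists and tests were chosen with earlier results of these data known. The fit was tested on simulated data. Alternatives were pseudocounts of 1 and 64, quantile normalization, centring, no dimmest 30%, no intensity trend, each tissue alone, other baselines, the replicate block and arrays left out.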

Additional observations from a re-analysis of the deposited data

Results flagged for a closer look

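The change from 0.5 h differed between roots and shoots, by the test of the difference itself, for 3 of the 6 genes and for AT1G49980. For AT4G14970 (FANCD2) the difference was 0.81 at 3 h, 1.14 at 6 h, 0.89 at 12 h and 0.99 at 24 h on the log2 scale, roots above shoots. For FANCM it was 0.73 at 12 h and for RAD5 0.84 at 3 h. For AT1G49980 it was 1.15 at 1 h, 0.96 at 3 h and 1.13 at 24 h. Of these calls, only those of FANCD2 at 6, 12 and 24 h held with each array left out in turn. With 2 arrays per group, no group was large enough to look for arrays that stand apart in a single gene.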

How the results depend on the processing

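For the 6 members, AT5G49110 and AT1G49980, 2240 single values were recomputed under alternatives: 2126 kept their direction and their side of the threshold, or had no call in either, 94 lost the call, 14 gained it and 6 reversed. The reversals were the difference between tissues (shoots minus roots) of AT1G48360, 0.13 after quantile normalization of all arrays and 0.13 after centring, and of RAD5, 0.04 after centring, and the roots minus shoots difference of AT1G49980 with 1 h as the baseline, -0.18 at 3 h, -0.92 at 12 h and -0.01 at 24 h. The members that passed in shoots at any single time numbered 3 (1 to 4 with an array left out), in roots 2 (1 to 2), between tissues 4 (3 to 4) and in the difference of changes 3 (1 to 3). For any change over time they numbered 2 in shoots (1 to 3), 1 in roots (1 to 2) and 1 in the difference (1 to 2). Roots came to 1 with a pseudocount of 1, with quantile normalization of all arrays, without the dimmest 30% of probe sets, which leaves RAD5 out, and with 1 h as the baseline. Any change in shoots came to 1 with a pseudocount of 1 and without both shoot arrays nearest to the roots, and the difference of changes to 1 with quantile normalization within each tissue and with 1 h as the baseline, which covers 4 times. The cause was not tested. The deviations of replicate 1 from its group mean were correlated between groups, in 66 pairs. These correlations ran from -0.191 to 0.199 (median -0.00711), and 6 were over 0.1. Same-numbered arrays were not treated as pairs in the main fit. With the replicate block the members that passed were again 3 in shoots, 2 in roots, 4 between tissues and 3 in the difference, and probe sets called in roots at 24 h went from 2975 to 2888. Low signals without detection calls, 2 arrays per group and untreated plants not analysed here limit all values.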
